A study of Mus musculus with 3 samples.

Results

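The miR-106b/93/25 cluster consists of 3 miRNA hairpins, Mir106b, Mir93 and Mir25, that lie in this order on the minus strand of mouse chromosome 5. Its members were chosen by position, as the alignments whose 5′-start fell within a fixed stretch of the minus strand that covers these hairpins, and no measured level entered the choice. The 3 hairpins are 3 of the 211 hairpins whose place in the alignments could be found by sequence, and they give 6 mature arms, a 5p and a 3p arm from each. The fixed stretch ended inside the Mir106b hairpin and left out its 5p arm, so the whole hairpins and 50 bases on either side were used. This added 3683, 3914 and 3705.5 reads in replicates 1, 2 and 3, or 5.07%, 4.98% and 4.84% of the reads of the cluster.

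A primary miRNA transcript is cut by Drosha at the base of each hairpin and the hairpin is then cut by Dicer near its loop, and one strand of the resulting duplex is usually retained by an Argonaute protein. The retained strand recognizes target mRNAs largely through its seed, bases 2 to 8 from its 5′ end, so that a shifted 5′-start gives another seed. The miR-106b/93/25 cluster is a paralog of the miR-17/92 cluster, lies within an intron of Mcm7, which encodes a subunit of the replicative helicase, and is known for repressing cell cycle inhibitors and the pro-apoptotic factor Bim.

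The small RNA libraries (n = 3 biological replicates) were prepared from MIN6, an established line grown from a beta cell tumor (insulinoma) of the mouse pancreas that still secretes insulin. All libraries came from cells cultured in DMEM with 25 mM glucose and heat-inactivated fetal bovine serum, so there is 1 group and no comparison between conditions, and the line is a tumor line rather than primary beta cells. The deposited values are expected counts, the reads behind each distinct alignment with reads of several loci divided among them, and they summed to 9269795, 10816006 and 10218743 mapped reads. Levels are given below as RPM, the reads at a position divided by the mapped reads of the library and scaled to 1000000, counted at the 5′-start of the mature sequence in RefSeq (the 5′-reference miRNA) unless stated otherwise.

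At this depth, a 5′-start without a read in a library allowed up to 3 reads, or 0.277 to 0.324 RPM, and these limits and the 95% Wilson intervals below cover counting error only. The labels name no batch, and no pair of libraries had the same values. Of the cell type markers, the most abundant start of the Mir375 hairpin, a miRNA of endocrine pancreas, reached 334275, 357402 and 371065 RPM, and miR-7a-5p, another islet miRNA, reached 419.97, 439 and 355 RPM summed over 2 hairpins. The liver, muscle and blood markers miR-122-5p, miR-1a-3p, miR-133a-3p, miR-223-3p and miR-451a could not be placed in the alignments, so no level is given for them.

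The sequences of the hairpins are shown because the position of each arm, and the bases between the arms, define the reads described below. They are from RefSeq (the table for GRCm38.p6), written 5′ to 3′, with the mature arms in capitals.
Mir106b: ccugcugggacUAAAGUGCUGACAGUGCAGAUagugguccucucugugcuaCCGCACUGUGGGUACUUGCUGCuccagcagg
Mir93: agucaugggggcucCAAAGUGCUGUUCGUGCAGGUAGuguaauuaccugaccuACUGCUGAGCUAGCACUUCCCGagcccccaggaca
Mir25: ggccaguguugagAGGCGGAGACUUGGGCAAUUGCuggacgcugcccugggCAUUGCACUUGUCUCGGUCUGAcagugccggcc

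In the deposited alignments, whose build the submitters' processing notes give as mm9, these sequences were placed at chr5:138606965-138607046 for Mir106b, chr5:138606751-138606838 for Mir93 and chr5:138606549-138606632 for Mir25. The hairpins are 82, 88 and 84 bases long, 126 bases separate Mir106b from Mir93, 118 bases separate Mir93 from Mir25, and the cluster spans 498 bases. A base recorded as a mismatch cannot be the base of the genome. A position was accepted only where no such base contradicted the hairpin sequence. Mir106b, Mir93 and Mir25 had 4916.5, 8501 and 28622 mismatching read bases. Their 0 contradictions were thus a condition of placement and give no separate check of it. In the GENCODE M21 annotation of another build, GRCm38, all 3 hairpins lie on the strand of Mcm7, within intron 13 of its transcript Mcm7-201 of 15 exons. They overlap no exon of that transcript, while Mir93 and Mir25 overlap an exon of the retained-intron transcript Mcm7-202.

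The mature sequences follow with the seed in capitals, because they assign the arms to seed families.
miR-106b-5p: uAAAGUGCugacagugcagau
miR-93-5p: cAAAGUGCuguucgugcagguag
miR-25-3p: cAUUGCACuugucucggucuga
miR-106b-3p: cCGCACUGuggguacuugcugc
miR-25-5p: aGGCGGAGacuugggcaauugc
miR-93-3p: aCUGCUGAgcuagcacuucccg

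miR-106b-5p and miR-93-5p share the seed AAAGUGC with miR-17-5p, miR-20a-5p, miR-20b-5p and miR-106a-5p. miR-25-3p has the seed AUUGCAC, shared with miR-92a-3p, miR-92b-3p, miR-363-3p, miR-32-5p and miR-367-3p. The other 3 arms each had a seed found in no other arm of the cluster.

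The cluster as a whole was expressed at 7843.5, 7272 and 7492 RPM in replicates 1, 2 and 3, and its hairpins contributed very unequally. The reads of the cluster summed to 72708, 78656 and 76562 in replicates 1, 2 and 3, which is 0.754% ± 0.0288 of the mapped reads (SD, n = 3). Of these, miR-25-3p took 64.3% ± 0.464, miR-93-5p 25.3% ± 0.625, miR-106b-5p 4.91% ± 0.121 and miR-106b-3p 3.49% ± 0.103 (SD, n = 3). miR-25-5p and miR-93-3p each took under 0.5% in every library.

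miR-25-3p, known as a repressor of Bim with its seed relatives, was expressed at 5068, 4697 and 4780.1 RPM in replicates 1, 2 and 3, with a mean of 4848 ± 195 RPM (SD, n = 3). miR-93-5p, which shares its seed with the proliferative miR-17, was expressed at 1940.4, 1828 and 1945 RPM, with a mean of 1905 ± 66.2 RPM. The levels of these 2 arms did not overlap between libraries, and miR-25-3p was 2.55 ± 0.0799 fold higher than miR-93-5p within libraries.

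miR-106b-5p was expressed at 393, 358 and 358 RPM, with a mean of 369.8 ± 20.5 RPM (SD, n = 3), which was 5.16 ± 0.256 fold lower than miR-93-5p. miR-106b-3p, from the other strand of the same hairpin, was expressed at 277, 245 and 266 RPM, with a mean of 263 ± 16.5 RPM. These 2 arms did not overlap either, and miR-106b-5p was the higher in each of the 3 libraries.

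miR-25-5p was expressed at 39.1, 32.7 and 30.3 RPM, with a mean of 34.0 ± 4.52 RPM, and miR-93-3p at 30.5, 33.2 and 30.04 RPM, with a mean of 31.3 ± 1.70 RPM (SD, n = 3). The order of this last pair differed between libraries, with miR-25-5p the higher in 2 of 3, so their levels did not differ beyond the spread between replicates. Between each other pair of neighbors in the order of levels, the higher arm exceeded the lower in 3 of 3 libraries without overlap. Apart from miR-25-5p, with a coefficient of variation of 13.3%, the arms varied by 3.48% to 6.27% between libraries.

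**Figure D1:**
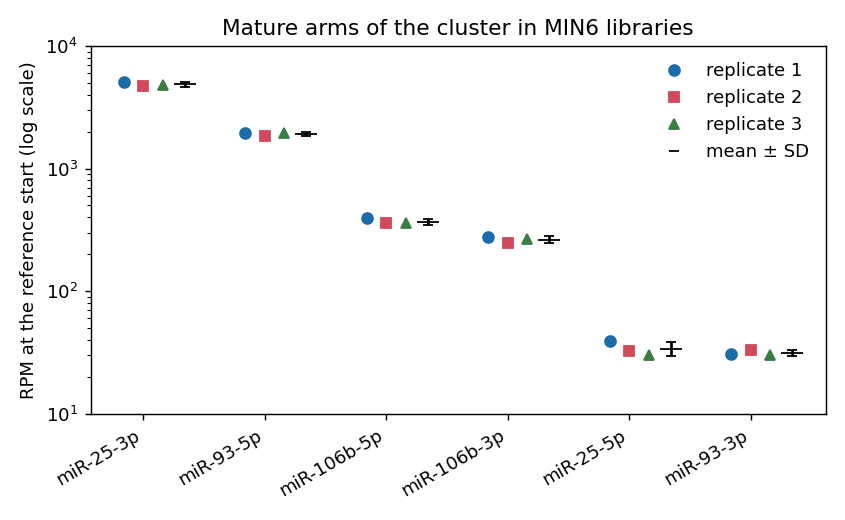
Level of each mature arm at its reference 5′-start, in RPM on a log scale, with 1 point per library and the mean ± SD beside them (n = 3). The arms range from 4848 RPM for miR-25-3p to 31.3 RPM for miR-93-3p, and among neighbors in this order only miR-25-5p and miR-93-3p overlap.

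**Figure D2:**
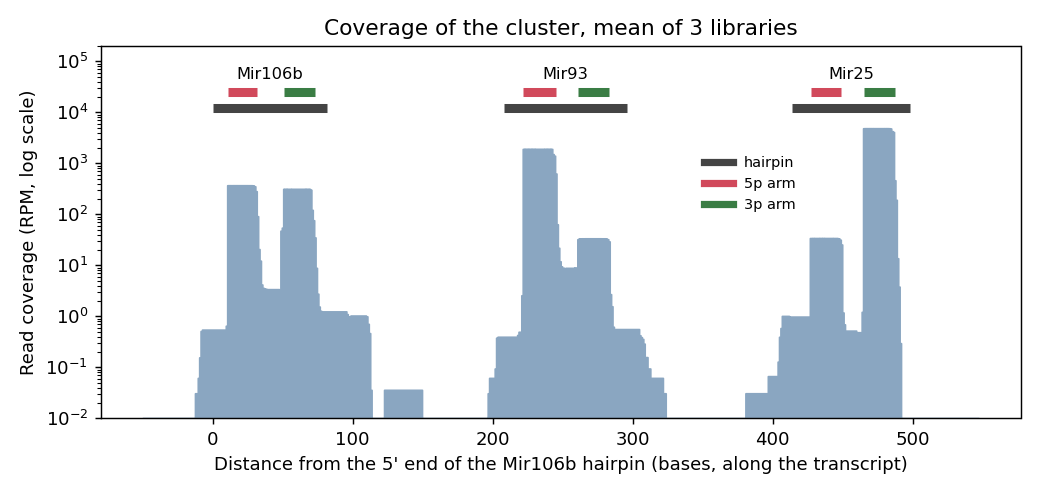
Read coverage along the cluster in RPM on a log scale, as the mean of 3 libraries, against the distance in bases from the 5′ end of the Mir106b hairpin along the transcript. Bars above the profile mark hairpins (gray), 5p arms (red) and 3p arms (green). The profile shows both arms of Mir106b at similar heights, the 5p arm of Mir93 and the 3p arm of Mir25 far above their partners, and low coverage of loops and flanks.

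Among the 5′-starts of the whole alignments, miR-25-3p ranked 19, 23 and 21 in replicates 1, 2 and 3, and miR-93-5p ranked 44, 52 and 50. miR-106b-5p ranked between 145 and 156, miR-106b-3p between 192 and 202, and the 2 least abundant arms between 937 and 1186. In the order of the placed reference starts, each counted at its own hairpin, miR-25-3p lay just below let-7c-5p at Mirlet7c-1, with 5434 ± 1037 RPM, and just above miR-541-5p, with 4847 ± 251 RPM (SD, n = 3). let-7c-5p had a further 5507 RPM at Mirlet7c-2. miR-93-5p lay between let-7g-5p at 1989 ± 139.9 RPM and miR-411-5p at 1561 ± 103 RPM. miR-106b-5p lay between let-7e-5p at 384 ± 111 RPM and miR-128-3p at Mir128-2, with 369.7 ± 20.02 RPM and a further 409 RPM at Mir128-1, and miR-106b-3p between miR-181a-1-3p at 272 ± 23.7 RPM and miR-671-3p at 260.2 ± 16.2 RPM. The ranges of the libraries overlapped for these pairs, except for miR-93-5p and miR-411-5p.

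The 3 hairpins differed in which arm was the more abundant and by how much. In Mir25 the 3p arm exceeded the 5p arm by 129.8, 144 and 158 fold in replicates 1, 2 and 3, with a mean of 144 ± 14.03 fold (SD, n = 3). In Mir93 the 5p arm exceeded the 3p arm by 63.6, 55.1 and 64.8 fold, with a mean of 61.1 ± 5.27 fold. In Mir106b the 5p arm exceeded the 3p arm by only 1.42, 1.46 and 1.34 fold, with a mean of 1.41 ± 0.0598 fold.

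The direction held in 3 of 3 libraries for each hairpin, and an exact two-sided sign-flip permutation test gave p = 0.25 for each, the smallest p that 3 libraries allow. Across the 120 placed hairpins with at least 10 reads of both arms in every library, the median fold between arms was 23.1, and the 5p arm was the higher in 65 and the 3p arm in 55. Of these 120 hairpins, 10 had more even arms than Mir106b, 76 more even arms than Mir93, and 97 more even arms than Mir25. The floor of 10 reads leaves out very uneven hairpins, such as Mir192 with 10683 reads of its 5p arm and 3 of its 3p arm in replicate 1. The median and these counts therefore lack hairpins more uneven than Mir93 and Mir25. The closeness of the Mir106b arms depended on how the 3p arm was counted, since with all 5′-starts of each arm the ratio was 1.18 ± 0.0468 (SD, n = 3).

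The reads of the cluster had 77 different 5′-starts, of which 15 held at least 10 reads in every library. These were the 6 reference starts, 6 starts shifted by 1 or 2 bases, and 3 starts outside the mature arms. The shifted starts were unevenly spread, and most of their reads came from a single arm, miR-106b-3p.

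The 5′-shifted isomiR miR-106b-3p-2, which starts 2 bases upstream of the 5′-reference miRNA, had 464, 440 and 427 reads, or 44.2 ± 5.12 RPM (SD, n = 3). This was 14.9% (95% interval 13.7% to 16.2%), 13.9% (12.8% to 15.2%) and 13.2% (12.1% to 14.5%) of the reads of the arm in replicates 1, 2 and 3. miR-106b-3p-1, which starts 1 base upstream, had 77, 66 and 69 reads, or 2.23% ± 0.207 of the arm. The isomiR is shown beside the most frequent read of the reference start, each with its seed in capitals, because the shift replaces the seed CGCACUG by ACCGCAC.
miR-106b-3p-2: uACCGCACuguggguacuugcu
miR-106b-3p 20-nt: cCGCACUGuggguacuugcu

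Reads of these starts differed in length but shared their most frequent 3′-end. Of the reads at the reference start, 53.1%, 51.2% and 54.1% were 20 nt long, although the mature sequence in RefSeq is 22 nt long. Of the reads of miR-106b-3p-2, 85.8%, 86.6% and 82.4% were 22 nt long, and of those of miR-106b-3p-1, 48.7% ± 8.28 (SD, n = 3) were 21 nt long. Among reads without a mismatch, 63.0% ± 1.45 at the reference start, 51.1% ± 10.4 of miR-106b-3p-1 and 87.6% ± 1.77 of miR-106b-3p-2 ended at the same base, chr5:138606976, which is 2 bases before the RefSeq 3′-end. The shares ending at this base did not overlap between miR-106b-3p-2 and the reference start, with the higher shares in the shifted isomiR. For miR-106b-3p-1 in replicate 3, the share was only 39.7%, beside 36.5% at the RefSeq 3′-end.

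**Figure D3:**
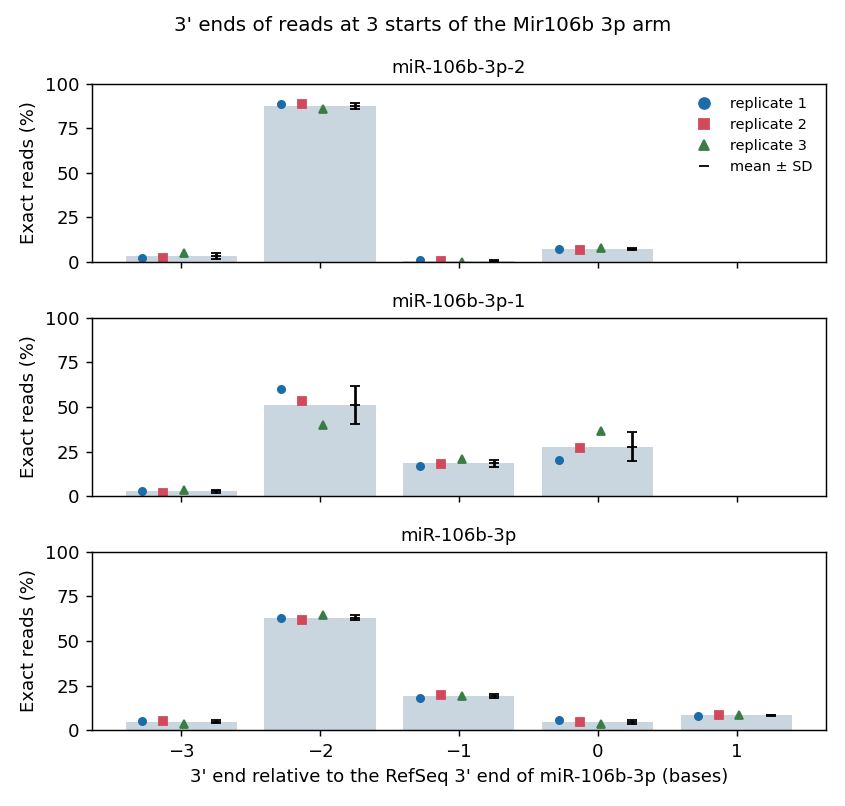
3′-ends of reads without a mismatch at 3 starts of the Mir106b 3p arm, as the percentage of the exact reads of each start against the distance in bases from the RefSeq 3′-end. Bars are means, points are the 3 libraries, and error bars are SD (n = 3). The tallest bar lies 2 bases before the RefSeq end at each start, at 87.6%, 51.1% and 63.0%, and only the reference start has a visible bar 1 base past the RefSeq end.

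Over all starts within 5 bases, the share of shifted reads in miR-106b-3p was 17.5%, 16.1% and 15.5% in replicates 1, 2 and 3. In miR-93-3p it was 5.78% ± 0.231 (SD, n = 3), with miR-93-3p+1 at 11, 12 and 16 reads. The other 4 arms were nearly uniform at their 5′-end, with 0.444% ± 0.0493 in miR-93-5p, 0.248% ± 0.0233 in miR-25-3p, 0.234% ± 0.405 in miR-25-5p and 0.0813% ± 0.0501 in miR-106b-5p. The share of miR-25-5p came from replicate 2 alone, at 0.701%, with 0 shifted reads in replicates 1 and 3, so the order of this arm and miR-106b-5p rests on 1 library. The share of miR-106b-3p was the highest of the 6 arms in every library.

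In these 4 arms, the starts with 10 reads in every library were miR-25-3p+1 with 111, 89 and 104 reads, miR-93-5p+1 with 50, 65 and 48 reads, and miR-93-5p-1 with 26, 19 and 17 reads. For comparison, the median share over 192 placed arms with at least 1000 reads in all and 200 in every library, the cluster included, was 1.33%. Of these arms, 165 had a lower share than miR-106b-3p, 57 a lower share than miR-93-5p, 36 a lower share than miR-25-3p and 16 a lower share than miR-106b-5p.

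The length of reads at the reference start, and thus the 3′-end, was more variable than the 5′-end. miR-25-3p was mostly 22 nt long, at 75.7%, 75.3% and 73.8% of its reads in replicates 1, 2 and 3, with 10.9% ± 0.304 at 20 nt (SD, n = 3). miR-93-5p had no majority length. It was 23 nt long in 40.7% ± 1.11, 24 nt in 29.5% ± 0.447 and 21 nt in 20.7% ± 1.19 of its reads, with 5.42% ± 0.191 at 22 nt.

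miR-106b-5p, its seed partner, was 21 nt long in 51.7% ± 0.867, 22 nt in 19.99% ± 0.453 and 20 nt in 18.7% ± 1.01 of its reads. The minor arms were mostly 1 base longer than in RefSeq, with 81.8% ± 1.63 of miR-93-3p and 72.4% ± 1.74 of miR-25-5p at 23 nt against 22 nt in RefSeq.

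Reads with a mismatch at the last base (3′-end), which the study counted as non-templated additions, made up 15.2%, 16.2% and 16.3% of miR-106b-3p in replicates 1, 2 and 3. They made up 11.3%, 11.6% and 11.99% of miR-25-3p, and 10.2% ± 0.598 of miR-93-3p (SD, n = 3). The shares were 8.45% ± 0.501 in miR-106b-5p, 8.15% ± 0.415 in miR-93-5p and 2.55% ± 0.329 in miR-25-5p. The median over the 192 placed arms was 7.05%, and 140 of them had a lower share than miR-106b-3p, 120 than miR-25-3p and 52 than miR-25-5p. Because hairpins were placed by their mismatching bases, arms with few mismatches may be missing from this and the other sets of placed arms. An added base that equals the next base of the genome cannot be seen as a mismatch, so these shares count visible additions.

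In each of the 6 arms, the mismatching last base was most often U, in 56.3% of such reads of miR-106b-5p and in up to 80.8% in miR-25-5p. For miR-25-3p, the full-length sequence of 22 nt carried U in 3.70% ± 0.0953, UU in 2.15% ± 0.0261 and A in 1.53% ± 0.0420 of all reads (SD, n = 3). For miR-106b-3p, U after 21 matching bases alone held 8.04% ± 0.528 of the reads, and A after 22 matching bases 1.96% ± 0.254. For miR-93-5p, U followed 22 matching bases in 2.47% ± 0.279 of the reads and 24 matching bases in 1.72% ± 0.106, and A followed 23 matching bases in 2.07% ± 0.191. A-ended mismatches were 5.09% ± 0.154 of miR-106b-3p reads against a median of 1.26% over the placed arms, of which 169 had a lower share.

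miR-106b-5p differed from the other arms in that C made up 27.6% of its mismatching last bases, against at most 7.58% in the other 5. Most of these were reads that matched 19 bases and had C at position 20, in 1.69% ± 0.168 of all reads (SD, n = 3). The same mismatch, A20C (positions counted from 1 at the 5′-end of the read), was present in 9.08% ± 0.465 of the 20-nt reads, 8.33% ± 0.339 of the 21-nt reads and 8.27% ± 0.441 of the 22-nt reads of this arm, whether or not position 20 was the last base. No other arm of the cluster has A at position 20, and A-to-C there was also frequent in other miRNAs, as given below. Without A20C, the share of reads with a mismatching last base in miR-106b-5p was 6.74% ± 0.363.

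Internal mismatches, at least 3 bases before the 3′-end of the read, reached 1% of the covering reads in every library at 6 sites of the cluster, and 5 of these were A-to-C changes. The largest was A12C in miR-93-3p, at 21.2%, 21.2% and 22.1% in replicates 1, 2 and 3, from 60, 76 and 68 reads. In miR-106b-5p, A11C held 9.35%, 8.26% and 8.45%, and A20C held 5.89% ± 0.343 of the few reads long enough to cover it internally (SD, n = 3). In miR-25-5p, A9C held 3.48% ± 0.532 and A17C 2.46% ± 0.738. The sixth was A22T in miR-25-3p, at 5.84% ± 1.04 of the reads of 25 nt or more, from 8, 7 and 9 reads. miR-106b-3p and miR-93-5p had no such site.

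A-to-C mismatches of this kind were frequent at the same read positions in other miRNAs. Over 177 arms examined, 253 of 289 mismatches at 1% or more in every library were A-to-C. At position 12 the median over 45 other arms with A there was 18.4%, and 38 of them had a lower share than miR-93-3p. At position 11 the median over 32 other arms was 7.49%, and at positions 9 and 17 it was 2.78% and 1.19%, beside 8.69%, 3.48% and 2.46% in the cluster. At position 20 the median over 25 other arms was 7.70%, beside 5.89% in miR-106b-5p, and 3 of these arms had a lower share. The 5.89% came from only 10, 11 and 10 reads in replicates 1, 2 and 3. Its Wilson intervals were 3.10% to 10.1%, 3.55% to 10.9% and 3.15% to 10.3%, and each included 7.70%. Whether miR-106b-5p lay below the median thus could not be decided. Its reads of 20 to 22 nt, with A20C at 8.27% to 9.08%, were not counted here. At positions 2, 3, 4, 5, 14 and 18, the median was 0, and no arm of the cluster exceeded 0.0389% in any library. Of the 26 sites with A in the cluster, 21 were under 1% in at least 1 library. Whether these mismatches were present in the RNA was not tested.

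**Figure D4:**
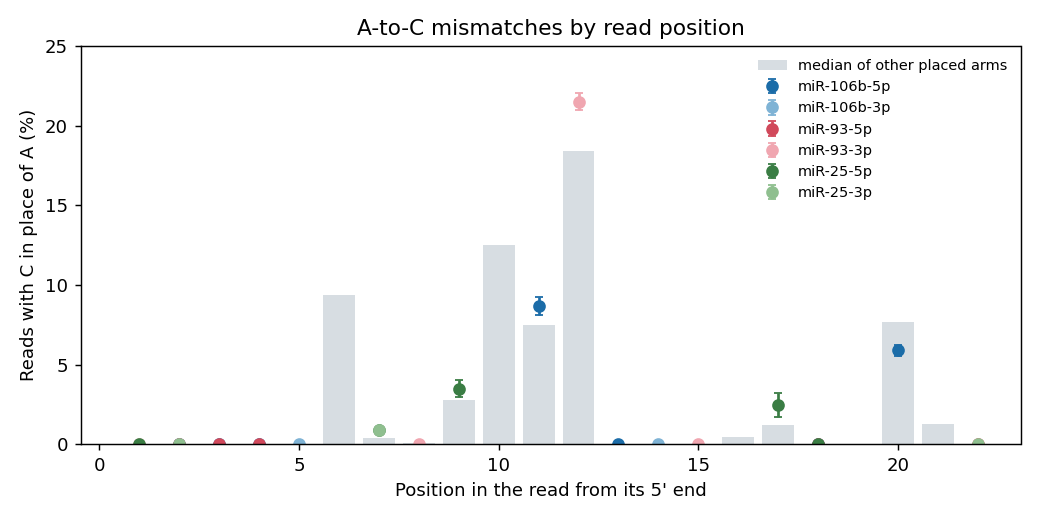
Percentage of reads with C in place of A at each A of the 6 arms (points, mean ± SD, n = 3), against the position in the read from its 5′-end. Gray bars are the median over the other placed arms with A at that position, shown where there were at least 10. The points of the cluster are high at positions 9, 11, 12, 17 and 20 and near 0 elsewhere except at position 7, where they lie near 0.9%.

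Reads that started more than 5 bases from the reference start of any arm were rare, at 97.2, 101 and 117 reads in replicates 1, 2 and 3, or 0.134%, 0.129% and 0.153% of the cluster. Several of them filled the space between or beside the arms exactly. The most abundant was an 18-nt fragment of the Mir106b loop with 29, 27 and 41 reads, which begins where the 22-nt form of miR-106b-5p ends and stops 1 base before the reference start of miR-106b-3p. A 16-nt fragment of the Mir93 loop, with 12, 10 and 12 reads, fills the gap between the 23-nt form of miR-93-5p and the start of miR-93-3p. Both are shown because their ends mark the same positions as the ends of the arms.
Mir106b loop fragment: gugguccucucugugcua
Mir93 loop fragment: uguaauuaccugaccu

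The Mir106b fragment ended before the reference start, not before the start of miR-106b-3p-2, in 97 of 97.25 reads with this 5′-start. Reads at the reference start of miR-93-5p are not part of these counts, but 173 of them were 39 nt long and 35 were 38 nt long. At 39 nt such a read holds the 5p arm and the whole loop, up to the base before miR-93-3p. Fragments of 37 nt held the loop together with 3p arm sequence, with 9 reads over the 3 libraries in Mir93 and 10 reads in Mir25. The Mir25 fragment reached the RefSeq end of its 3p arm. The Mir93 fragment ended at chr5:138606765, just short of the RefSeq end of miR-93-3p at chr5:138606764. Reads beside the hairpin arms were as rare. Fragments that stopped 1 base before the 5p arm had 26 reads in Mir25, at lengths of 20 to 22 nt, 9 reads in Mir93 and 11 reads in Mir106b, both at 19 nt. Downstream of the 3p arm of Mir106b, the start directly after the 22-nt form of miR-106b-3p held 16, 10 and 11 reads, mostly 38 to 40 nt long.

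The seed relatives of the cluster were much less abundant in these cells. They are shown with the seed in capitals, from RefSeq.
miR-17-5p: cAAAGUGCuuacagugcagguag
miR-20a-5p: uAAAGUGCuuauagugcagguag
miR-20b-5p: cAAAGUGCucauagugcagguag
miR-106a-5p: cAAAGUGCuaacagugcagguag
miR-92a-3p: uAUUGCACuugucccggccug
miR-92b-3p: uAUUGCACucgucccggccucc
miR-363-3p: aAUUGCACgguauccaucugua

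In the family with the seed AAAGUGC, whose members repress cell cycle inhibitors, miR-17-5p was expressed at 17.6, 14.8 and 17.5 RPM and miR-20a-5p at 11.2, 8.55 and 11.2 RPM in replicates 1, 2 and 3. miR-20b-5p had 1.5 reads in replicate 2 and 0 in the other libraries, and miR-106a-5p had 0 in each, below the limit given above. miR-93-5p exceeded miR-17-5p by 115 ± 7.26 fold, and miR-106b-5p exceeded it by 22.3 ± 1.82 fold (SD, n = 3). Together, miR-93-5p and miR-106b-5p held 98.8%, 98.9% and 98.8% of the reads of the family.

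In the family with the seed AUUGCAC, miR-92b-3p was expressed at 332, 288 and 269 RPM, and miR-92a-3p, summed over 2 hairpins, at 231, 243 and 239 RPM. miR-363-3p had 1 read in replicate 2 and 0 in the other libraries, and miR-32-5p and miR-367-3p could not be placed. miR-25-3p exceeded miR-92b-3p by 16.4 ± 1.28 fold and miR-92a-3p by 20.5 ± 1.35 fold (SD, n = 3). It held 90.0%, 89.8% and 90.4% of the reads of the placed members of this family. Reads of a single locus made up 99.9995% of miR-25-3p, 99.9991% of miR-93-5p and 99.1% of miR-106b-5p, so the division of reads among loci hardly touched these levels.

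**Figure D5:**
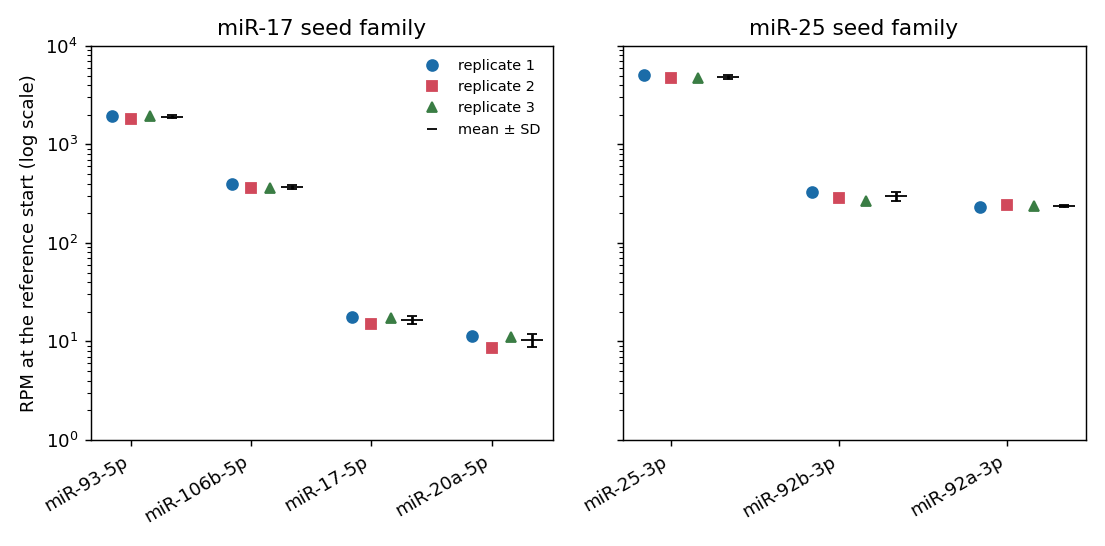
Levels of the placed members of both seed families in RPM on a log scale, with 1 point per library and the mean ± SD beside them (n = 3). In each family the members of the cluster lie above the relatives in every library, with miR-93-5p and miR-106b-5p above miR-17-5p and miR-20a-5p on the left and miR-25-3p above miR-92b-3p and miR-92a-3p on the right. miR-20b-5p, miR-106a-5p and miR-363-3p, with at most 1.5 reads in a library, are not drawn.

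The relatives also differed from the cluster at the 3′-end. Reads with a mismatching last base were 23.7% ± 2.19 of miR-92a-3p at Mir92-1 and 24.4% ± 1.37 of miR-92b-3p, beside 11.6% ± 0.339 of miR-25-3p (SD, n = 3), although these 3 arms were each most often 22 nt long. miR-17-5p and miR-20a-5p had 3.13% ± 1.68 and 3.47% ± 1.21, from 502.5 and 311 reads, beside 8.15% in miR-93-5p and 8.45% in miR-106b-5p. The last value includes A20C, at a site where miR-17-5p and miR-20a-5p have G, and was 6.74% ± 0.363 without it. The 23-nt form was the most frequent in miR-93-5p, miR-17-5p and miR-20a-5p, at 40.7% ± 1.11, 53.7% ± 1.00 and 69.2% ± 3.66 of the reads.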

How the data were processed

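Per the study's methods, adaptor-trimmed reads of MIN6 small RNA libraries at 25 mM glucose were mapped by the authors in 2 rounds. Bowtie was used first for exact matches, and SHRiMP2 then near these matches, allowing 1 mismatch in the body and up to 3 at the 3′-end. The number allowed at the 3′-end depended on read length and was lower in shorter reads. Longer additions were thus not seen, and this limit differed between read lengths. The deposited values are expected counts, in which the authors divided reads of several loci, and they are not normalized. The submitters' processing notes name mm9, and no genome of this build was used here.

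RPM, shares within an arm (5′-starts within 5 bases of the reference), lengths and mismatches were computed in Python 3.11.15 (numpy 2.4.6, pandas 2.3.3, scipy 1.17.1; figures, matplotlib 3.10.9). The end coordinate of exact alignments was moved by 1 base to fit that of the others. Reads with a whole-number value were taken as single-locus. RefSeq hairpins were placed by the bases that mismatches exclude (at least 20 bits), alone or with hairpins within 1000 bases, and 211 of 991 were placed, with 0 reversed hairpins. On simulated data, 100 of 100 hairpins and 0 of 100 decoys were placed. The simulated hairpins were well covered, with evenly spread mismatches, and the decoys were random sequences. Sparse loci and hairpins of similar sequence were thus not tested.

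Named are the 6 arms, 5′-starts with at least 10 reads in every library, 9 seed relatives, the placed starts just above and below the 4 most abundant arms, and internal mismatches of at least 1% in every library. The members, lists and settings were chosen with earlier results of these data known. Alternatives were exact or single-locus reads, other totals, windows and lengths, all 5′-starts, mismatches in the last 3 bases, and leaving out each replicate. The human and mouse liver libraries were not analysed here.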

Additional observations from a re-analysis of the deposited data

How the results depend on the processing

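Of 102 alternative values other than those without a replicate, 55 moved by less than 1 SD of the replicates and 47 by more. Changes in the order of the arms were not counted. Leaving out 1 of 3 replicates cannot move a mean by 1 SD, so that measure says nothing of stability there. Without replicate 2, the shifted share of miR-25-5p was 0% in place of 0.234%. No paired analysis was possible because the libraries form 1 group.

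Levels moved with the total used. With exact reads over exact mapped reads, miR-25-3p was at 5765, miR-93-5p at 2329.5, miR-106b-5p at 397, miR-106b-3p at 301 and miR-25-5p at 42.4 RPM. With single-locus reads over single-locus mapped reads, the 6 arms were at 5789, 2274, 438, 314, 40.6 and, for miR-93-3p, 37.3 RPM. With reads of 16 to 27 nt as the total, they were at 5519, 2169, 421, 299, 38.7 and 35.6 RPM. Without the most abundant 5′-start in the total, they were at 7508, 2951, 572, 407, 52.6 and 48.4 RPM, over 1.5 times the reported levels, because this start, in the Mir375 hairpin, held 334275 to 371065 RPM. With all 5′-starts, miR-106b-3p was at 314 and miR-93-3p at 33.2 RPM.

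The ratio of the arms of Mir106b was 1.32 with exact reads and 1.18 with all 5′-starts, and that of Mir93 was 79.0 with exact reads. With exact reads, 18.1% of miR-106b-3p reads were shifted and miR-25-3p held 91.6% of its seed family. With a mismatch in any of the last 3 bases, the shares were 14.8% in miR-106b-5p, 16.6% in miR-106b-3p, 10.04% in miR-93-5p, 10.9% in miR-93-3p and 12.2% in miR-25-3p. The first of these includes A20C, and without reads that had A20C alone it was 7.46%. With A20C included, miR-106b-5p thus lay above miR-25-3p and miR-93-3p, while by the last base alone it lay below both. With all 5′-starts, miR-106b-3p had 13.9%, and with single-locus reads miR-106b-5p had 7.80%. The cause of the other shifts was not tested. Depth limits the starts of under 30 reads, the minor arms, and the relatives near 0.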

Other observations

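The C13A mismatch stayed under 1% in at least 1 library of each arm and so belongs to no comparison above, but it varied between libraries beyond counting error. In miR-25-3p it held 0.683% (95% Wilson interval 0.613% to 0.762%), 0.244% (0.205% to 0.291%) and 0.794% (0.719% to 0.876%) of the covering reads in replicates 1, 2 and 3. In miR-93-5p it held 0.456% (0.367% to 0.565%), 1.44% (1.28% to 1.61%) and 0.905% (0.783% to 1.05%). Replicate 2 was thus the lowest in one arm and the highest in the other, with intervals that did not overlap. Over 34 arms outside the cluster with C at position 13, the median was 0.555%. Of these, 17 had a lower mean share than miR-25-3p and 25 a lower one than miR-93-5p. In contrast, A7C in miR-25-3p held 0.924%, 0.933% and 0.886%, with overlapping intervals. Only 1 of 64 arms outside the cluster with A at position 7 had a share at or above its mean. Within the cluster, A7C in miR-25-5p was close to it, at 0.866% ± 0.230 (SD, n = 3). C13A and A7C were singled out after their values were seen, and the cause was not tested.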
